A study of Mus musculus with 3 samples.

Results

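The genes described are 10 of the 22954 listed for each library. They are the Notch receptors Notch1, Notch2, Notch3 and Notch4, the ligands Jag1, Dll1 and Dll4, and the target genes Hes1, Hey1 and Heyl. They were chosen by name, and were also selected on 1 measured value, the low Hes1 level in CONV fibroblasts, which is therefore given as a description only. Lung cells of 3 female wild-type C57BL6/J mice were profiled, 1 library of 1 mouse for each condition, 5 months after 13 Gy to the whole thorax. The CONV mouse was irradiated at conventional dose rate, and the FLASH mouse at ultra-high dose rate. The CONV AsiDNA mouse was irradiated at conventional dose rate after AsiDNA, a short DNA decoy that mimics a double-strand break, had been injected into the peritoneum at 100 mg/kg daily for 2 days and at 200 mg/kg on the irradiation day. The animals' age is not given in the labels, and non-irradiated libraries were not analysed here. As each condition is a single mouse, no test was possible, the differences given are between 3 libraries, and condition, mouse and library cannot be told apart.

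Notch signalling passes between cells that touch. A ligand of the Jagged or Delta-like family on one cell binds a Notch receptor on its neighbour. The receptor is then cut by ADAM proteases and gamma-secretase, and its intracellular domain joins RBPJ in the nucleus and switches on target genes, among them repressors of the HES and HEY families. In blood vessels the pathway is known for arterial identity and for the choice of tip and stalk cells in sprouting. In mural cells Notch3 keeps the contractile state, and in the airway Notch divides secretory from ciliated fate.

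Values are adjusted counts, the whole numbers behind the deposited log values. A level is the sum of a gene's adjusted counts in a cell group per 1000000 adjusted counts of that group. The median total per cell was between 3450 and 3678 in the 3 libraries. Of 19619 cells kept, 19187 were placed in a class by marker genes that include none of the 10 genes, and 42 barcodes occurred in more than 1 library. Of 92 markers kept aside to check the gate, 83 were at least 2-fold higher in their own group. A group was compared between libraries where it had at least 20 cells in each, which held for 26 groups. The names are those of their markers (fibroblast-like, EC-like and so on), and the suffix is left out in the plots. For the general capillary-like group 1 of 3 such markers, Tek, passed this check, as Ptprb and Hilpda were also high in other EC-like cells. A log2 ratio was taken after 10 was added to each level, and a gene was compared where its summed count in the group was at least 20. The share of cells above 0 carries an exact Clopper-Pearson 95% interval, which covers counting error over cells only, not the spread of mice. The endothelial receptor Notch4 was above 0 in 41.6%, 50.1% and 50.1% of the EC-like cells, in the order CONV, CONV AsiDNA, FLASH. It was above 0 in none of the 290, 329 and 382 AT2-like cells, alveolar epithelium that should lack it, with median totals of 4797 to 4837 per cell against 3848 to 3951 in the EC-like cells. No source used here states how the values were adjusted, which may include removal of background, so these zeros do not measure the free RNA of the libraries. A value of 0 is called listed at 0, since mt-Co1, a mitochondrial gene that every cell uses, was itself listed at 0 in all CONV fibroblast-like cells.

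Each of the 10 genes was detected, but in few cells. Hes1 was above 0 in 3218 cells, or 16.4% of those kept, Notch2 in 3135 and Notch1 in 2841. At the other end, Notch3 was above 0 in 120 cells and Heyl in 177. The genes fell into distinct sets of cells. Notch4, Dll1, Dll4 and the largest part of Notch1 lay in endothelium. Of the Notch1 counts, EC-like cells held 41.2%, 45.8% and 51.5% in CONV, CONV AsiDNA and FLASH. Notch3 and Heyl lay in mesenchyme, Notch2 mainly in macrophage-like, monocyte-like, neutrophil-like and B-like cells, and Jag1 and Hes1 had their largest part in ciliated-like cells.

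**Figure D1:**
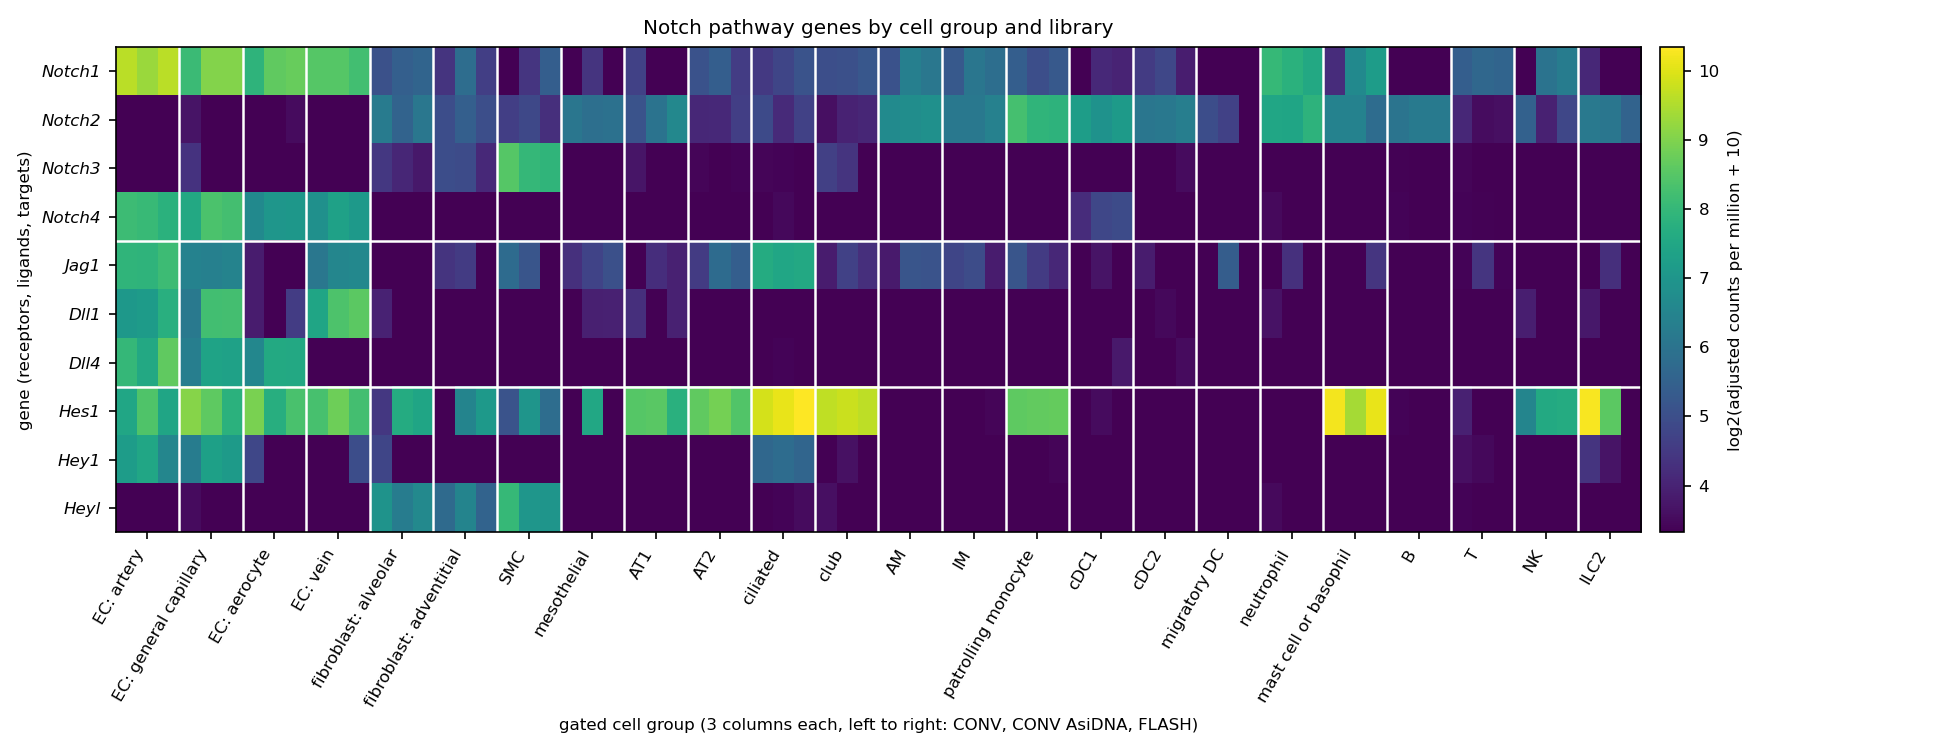
Heat map of the log2 of level plus 10 for the 10 genes (rows, grouped as receptors, ligands and targets) in 24 cell groups that do not overlap (columns, each with 3 sub-columns for CONV, CONV AsiDNA and FLASH). Dll4 is bright in 3 of the 4 endothelial groups and dark in the vein group, Notch3 is bright in SMC alone, and Hes1 is dark in CONV fibroblasts.

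Among the receptors, Notch1 is broadly used in endothelium and in lymphocyte development. It had its highest level in artery-like EC, at 776 in CONV against 615 (CONV AsiDNA) and 775 (FLASH), where 84.8%, 84.8% and 93.1% of the cells were above 0. The 33, 33 and 29 cells behind these values leave intervals that overlap. In vein-like EC it was at 350, 347 and 288, so CONV was not the lowest. Outside the endothelium Notch1 was highest in neutrophil-like cells, at 248 in CONV against 213 (CONV AsiDNA) and 177 (FLASH), and the 3 libraries lay within 2-fold of each other. In T-like cells it was at 32.8, 40.6 and 38.2.

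Notch2, a receptor known for marginal zone B cells and for myeloid and dendritic subsets, was rarely above 0 in endothelium. In EC-like cells it was at 5.09 in CONV and 0.554 in FLASH and was listed at 0 in CONV AsiDNA. As mt-Co1 was above 0 in only 0.533%, 12.1% and 25.3% of these cells, such values do not show that Notch2 is missing. The highest level of Notch2 was in patrolling monocyte-like cells, at 297, 231 and 224, where 54.5%, 55.9% and 51.0% of the cells were above 0. Neutrophil-like cells had 168, 164 and 221, cDC1-like cells 139, 109 and 132, and AM-like (alveolar macrophage) cells 92.3, 98.1 and 104. Within each of these groups the 3 libraries lay within 2-fold of each other. B-like cells had 55.4, 62.4 and 64.9. AT1-like cells differed, with 25.0 in CONV against 53.2 and 86.4, a log2 ratio of -0.85 and -1.46. Of all genes tested in AT1-like cells, 7.92% were at least 2-fold lower in CONV than in FLASH. Their dissociation genes summed to 8127, 4758 and 4394 and mt-Co1 was above 0 in 34.5%, 45.1% and 78.9%, and the part of both in the Notch2 value was not tested. NK-like cells differed the other way, at 35.3, 5.70 and 18.3, with a log2 ratio of 1.53 against CONV AsiDNA (3.74% of all genes were 2-fold higher there). These NK values rested on 7, 5 and 8 cells.

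Notch3, the receptor of vascular smooth muscle and pericytes, was concentrated in SMC-like cells. There its level was 350 in CONV against 246 (CONV AsiDNA) and 233 (FLASH), and 56.9%, 37.3% and 40.7% of the cells were above 0. SMC-like cells held 74.0%, 79.5% and 84.7% of all Notch3 counts of the libraries. The log2 ratios of CONV were 0.49 and 0.57, below the 2-fold mark. Notch4, a receptor known mainly from endothelium, had 97.0%, 95.9% and 96.9% of its counts in EC-like cells. The remainder included cDC1-like cells, at 8.71, 18.0 and 20.3.

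The endothelial ligands and receptors differed between kinds of vessel. Jag1 is a ligand of arterial endothelium and of airway epithelium, Dll4 of arteries and sprouting tips, and Dll1 of arteries after birth. In artery-like EC, Jag1 was at 231 in CONV against 226 (CONV AsiDNA) and 272 (FLASH), and in general capillary-like EC it was at 76.0, 73.4 and 77.5. In aerocyte-like EC, named for the capillary cells of the gas exchange surface, almost no Jag1 was seen. Jag1 was at 4.49 in CONV and listed at 0 in the other libraries. As mt-Co1 was also listed at 0 in these cells of all 3 libraries, the zeros do not show that Jag1 is missing. Aerocyte-like EC did hold Dll4, at 85.3, 184 and 179, with little Dll1 (4.49, 0 and 13.6). The vein-like EC were the opposite, with Dll1 at 163, 324 and 374 and Dll4 listed at 0 in all 3 libraries. Artery-like EC held both, with Dll1 at 123, 134 and 206 and Dll4 at 246, 177 and 388. Hey1, a target known for arterial fate, was likewise at 138, 170 and 82.5 in artery-like EC, was listed at 0 in aerocyte-like EC of CONV AsiDNA and FLASH, and was seen in vein-like EC of FLASH only, at 21.6. Notch4 was at 269, 255 and 214 in the artery-like group and at 89.8, 118 and 122 in the aerocyte-like group.

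**Figure D2:**
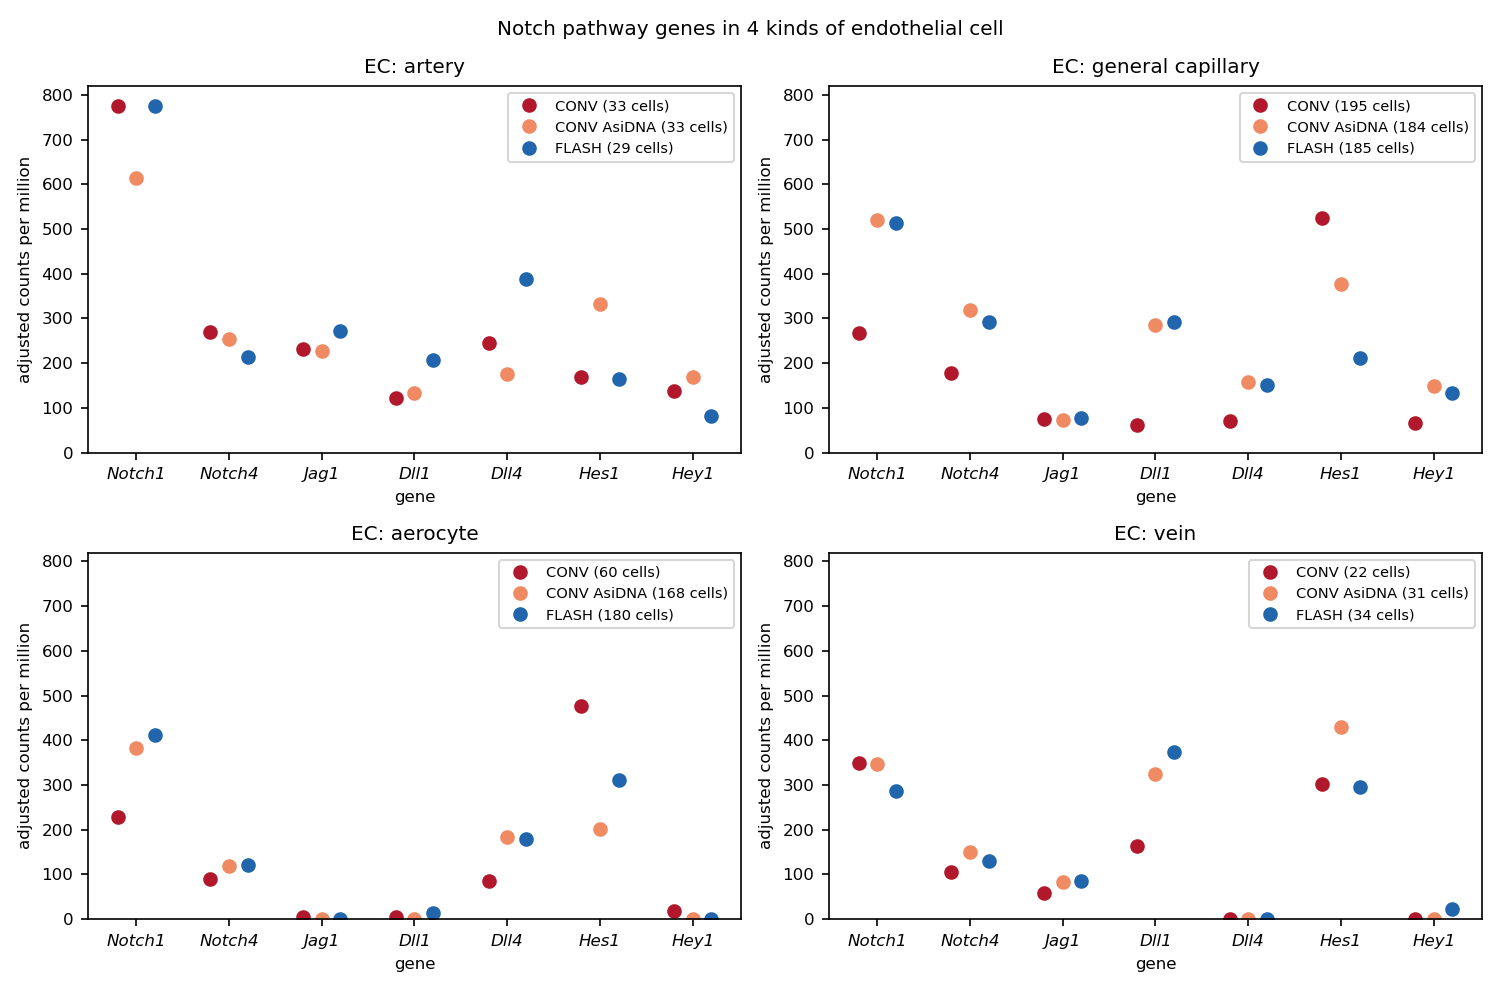
Level (adjusted counts per 1000000) of 7 genes in 4 endothelial groups, with a point for each library and no error bar, as a library is 1 mouse. The CONV points for Notch1, Notch4, Dll1, Dll4 and Hey1 lie below both others in general capillary cells, while the Hes1 point lies above; in artery cells CONV lies below both others for Dll1 only.

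The general capillary-like EC, with 195 cells in CONV against 184 (CONV AsiDNA) and 185 (FLASH), held the largest ratio between libraries among the 4 endothelial groups, that of Dll1. Dll1 was at 61.4 in CONV against 286 (CONV AsiDNA) and 293 (FLASH). It was above 0 in 35 of 195 CONV cells (17.9%; 95% interval 12.8 to 24.1), 95 of 184 CONV AsiDNA cells (51.6%; 44.2 to 59.0) and 99 of 185 FLASH cells (53.5%; 46.0 to 60.9). CONV alone was low, by a log2 ratio of -2.05 against CONV AsiDNA and -2.09 against FLASH. Of the genes tested there, 0.393% and 0.404% had a lower ratio. Dll4 was at 70.1 in CONV against 159 (CONV AsiDNA) and 150 (FLASH), and its log2 ratios were -1.08 and -1.001. Notch1 was at 267, 520 and 513, and Notch4 at 178, 319 and 293, so both receptors were lower in CONV by less than 2-fold. The log2 ratios were -0.93 and -0.92 for Notch1 and -0.81 and -0.69 for Notch4. Jag1 did not follow them, with log2 ratios of 0.04 and -0.02.

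The ratios of the targets had opposite signs in the same cells, but in neither comparison did both pass 2-fold. Hey1 was at 67.2 in CONV against 148 (CONV AsiDNA) and 132 (FLASH), a log2 ratio of -1.04 and -0.88. Hes1 went the other way, at 525 in CONV against 376 (CONV AsiDNA) and 213 (FLASH), a log2 ratio of 0.47 and 1.26. Its share of cells above 0 was 59.5% (52.2 to 66.4), 47.3% (39.9 to 54.8) and 36.2% (29.3 to 43.6). Of the 7 genes compared, 3 were at least 2-fold lower in CONV than in CONV AsiDNA (Dll1, Dll4 and Hey1), a call that 4.85% of all 8662 genes tested received, and none was higher (4.83%). Dll4 (-0.99) and Hey1 (-0.96) fell just short when the libraries were scaled by the median gene ratio. Against FLASH, 2 were lower (Dll1 and Dll4; 5.38% of all genes) and 1 was higher (Hes1; 6.12%). With the same scaling Dll4 (-0.93) fell short here too. Between CONV AsiDNA and FLASH none passed the fold, beside 3.37% of all genes in either direction. The median log2 ratio of the 7 genes was -0.93 against CONV AsiDNA and -0.88 against FLASH, beside -0.07 and -0.05 for all genes. The share of cells with both a receptor and a ligand above 0 was 36.4% in CONV cells (29.7 to 43.6) against 65.8% (58.4 to 72.6) for CONV AsiDNA and 65.9% (58.6 to 72.7) for FLASH.

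The bases before the start are shown for Notch1, Notch4, Dll1 and Dll4, whose levels in general capillary-like cells were lowest in CONV. Of these, Dll1 and Dll4 passed 2-fold, Dll4 not under the other scaling, and Notch1 and Notch4 did not. The bases were taken from RefSeq (GRCm38.p6), and the copy used here gave entries for 7 of the 10 genes. Hes1, Hey1 and Heyl had no entry in it, so Hey1, which was also lowest in CONV, is not shown. Bases that the GENCODE annotation of the same build counts as exon were left out, and for Dll1, which has an additional start downstream, the upstream start was taken. The lines give 248 bases for Notch1 (chr2:26503825-26504072, minus strand), 223 for Notch4 (chr17:34564045-34564267, plus), 250 for Dll1 (chr17:15376933-15377182, minus) and 250 for Dll4 (chr2:119325534-119325783, plus), each 5′ to 3′ on the strand of the gene. Capitals mark matches, on either strand, to TGGGAA (core site of RBPJ), CACGCG (site of HES and HEY factors) or CAGGAA (site of ETS factors, which are abundant in endothelium).
Notch1: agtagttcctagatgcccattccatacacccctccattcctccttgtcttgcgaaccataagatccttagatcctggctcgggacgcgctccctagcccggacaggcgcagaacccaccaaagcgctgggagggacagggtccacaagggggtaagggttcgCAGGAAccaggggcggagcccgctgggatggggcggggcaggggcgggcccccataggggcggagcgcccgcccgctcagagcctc
Notch4: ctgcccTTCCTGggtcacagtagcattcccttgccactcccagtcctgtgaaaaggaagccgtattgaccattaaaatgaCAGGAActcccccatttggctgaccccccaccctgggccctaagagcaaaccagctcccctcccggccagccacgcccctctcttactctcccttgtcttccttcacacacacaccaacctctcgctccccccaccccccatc
Dll1: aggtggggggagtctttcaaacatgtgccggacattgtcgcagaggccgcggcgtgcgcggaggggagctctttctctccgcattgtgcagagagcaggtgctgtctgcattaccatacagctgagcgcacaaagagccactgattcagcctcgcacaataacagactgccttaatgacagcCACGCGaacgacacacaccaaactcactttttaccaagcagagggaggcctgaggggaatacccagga
Dll4: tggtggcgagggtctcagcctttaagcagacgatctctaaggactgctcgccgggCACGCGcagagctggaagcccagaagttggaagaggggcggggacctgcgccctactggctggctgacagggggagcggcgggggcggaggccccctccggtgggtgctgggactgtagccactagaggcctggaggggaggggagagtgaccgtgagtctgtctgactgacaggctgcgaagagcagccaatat
Both receptors held the ETS letters, once in Notch1 and in 2 places in Notch4, and neither ligand did. Both ligands held the HES and HEY letters, once each, as did the windows of Notch2 (once) and Jag1 (in 2 places). Jag1 was not lower in CONV capillary cells, and Notch2 had too few counts there to compare. None of these windows held TGGGAA. Of 32851 windows of 250 bases upstream of the starts of all genes, 21.6% held TGGGAA, 7.62% CACGCG and 25.7% CAGGAA. Matches to TGGGAA and CAGGAA are thus common and those to CACGCG less so, and no match shows binding.

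Several other measures moved with the capillary values, and their part in them was not tested. About equal parts of the general capillary-like cells of CONV lay in a cluster shared with the other libraries and in one mostly of CONV. A cluster led by Apold1, Emcn and Cd300lg held 134 CONV, 23 CONV AsiDNA and 1 FLASH cells, whereas a cluster led by Ptprb, Plvap and Gpihbp1 was shared, with 150, 209 and 238. Of the general capillary-like cells, 99 of CONV were in the former and 95 in the latter. Within the shared cluster CONV had the lowest share for Dll1, Dll4, Hey1, Notch1 and Notch4 and the highest for Hes1 and Jag1. Dll1 was above 0 in 31.6% of 95 CONV cells (22.4 to 41.9), 56.2% of 162 CONV AsiDNA cells (48.2 to 63.9) and 54.4% of 182 FLASH cells (46.9 to 61.8). Hes1 was above 0 in 68.4% (58.1 to 77.6), 49.4% (41.4 to 57.3) and 36.8% (29.8 to 44.3). For Dll4 the shares were 22.1% (14.2 to 31.8), 37.7% (30.2 to 45.6) and 30.8% (24.2 to 38.0), and for Hey1 24.2% (16.0 to 34.1), 38.9% (31.3 to 46.9) and 34.1% (27.2 to 41.4). For both of these genes the CONV interval overlapped those of the other libraries. The same held for Notch1 (66.3%, 74.7% and 75.8%), Notch4 (53.7%, 69.1% and 63.2%) and Jag1 (24.2%, 18.5% and 22.5%). In the cluster mostly of CONV, Dll1 was above 0 in 5.05% of the 99 CONV cells (1.66 to 11.4) and 20.0% of the 20 CONV AsiDNA cells (5.73 to 43.7). CONV was not lower there in Hey1, at 8.08% (3.55 to 15.3) against 0 of 20 cells (upper bound 16.8), nor in Dll4, at 12.1% (6.42 to 20.2) against 10.0% (1.23 to 31.7). Without that cluster the log2 ratio of Dll1 was -1.37 and -1.30, that of Dll4 -0.86 and -0.66, that of Hey1 -0.71 and -0.40, and that of Hes1 0.70 and 1.59, and 1 gene was then past 2-fold against CONV AsiDNA (Dll1) and 2 against FLASH (Dll1 and Hes1), in place of 3 in each. This exclusion was chosen after seeing the data.

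Genes of the response to tissue dissociation also differed there. Of 18 compared in general capillary-like cells, 12 were at least 2-fold higher in CONV than in CONV AsiDNA and 13 than in FLASH, and none was lower. Their summed level was 20766 in CONV against 7407 (CONV AsiDNA) and 9754 (FLASH). The level of Fos was 2756, 279 and 352, and that of Egr1 1017, 92.9 and 166. Atf3 was at 564, 67.4 and 72.9, and Jun was at 2256, 1328 and 1654. In the shared cluster the sum was 13258, 7228 and 9536. The mitochondrial gene mt-Co1 was at 21.9, 1118 and 1613.

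**Figure D3:**
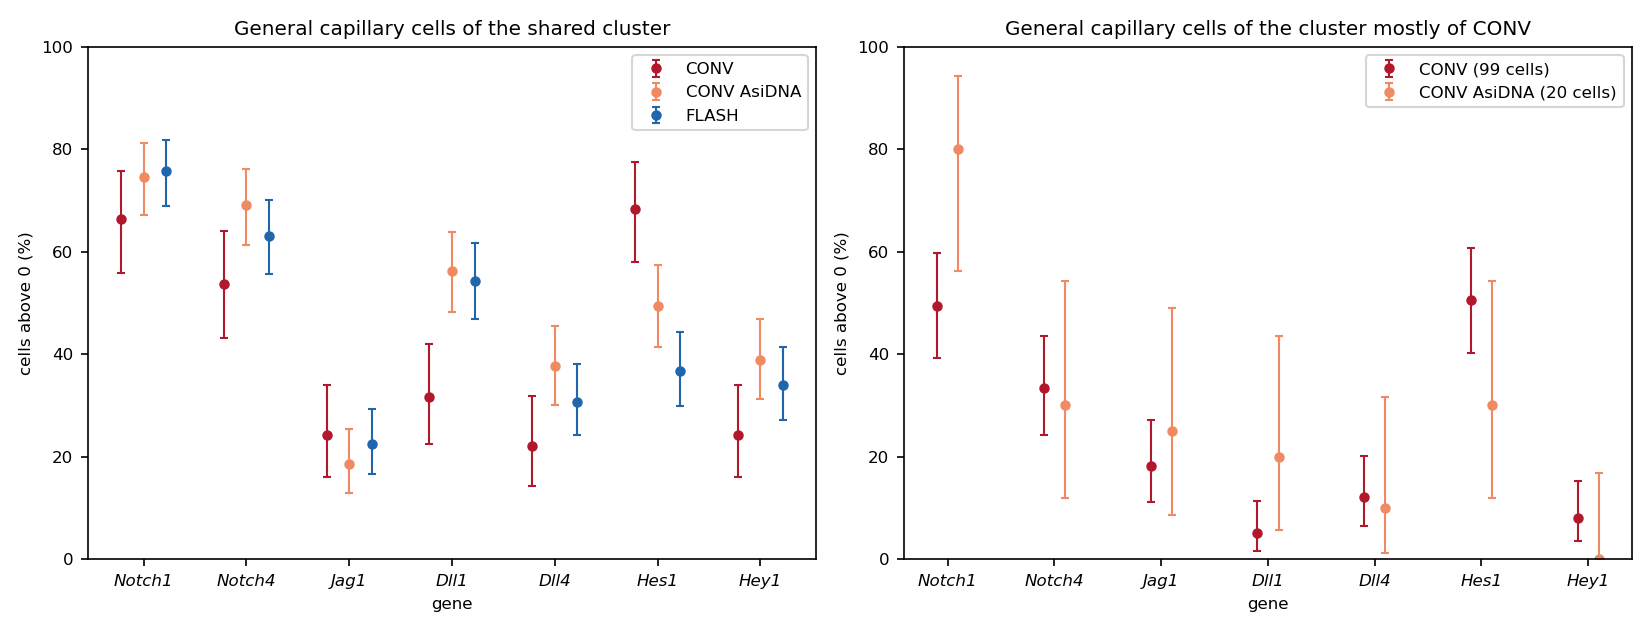
Share of general capillary cells above 0 for 7 genes, with exact 95% intervals over cells, in the cluster shared by the 3 libraries (left; 95, 162 and 182 cells) and in the 99 CONV and 20 CONV AsiDNA cells of the cluster mostly of CONV (right). In the shared cluster the CONV interval for Dll1 (22.4 to 41.9) lies below those of both other libraries, and that for Hes1 (58.1 to 77.6) lies above them, whereas the intervals for Dll4 and Hey1 overlap.

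Aerocyte-like EC, with 60, 168 and 180 cells, gave the same direction for Notch1, Dll4 and Hes1. Notch1 was at 229 in CONV against 383 (CONV AsiDNA) and 411 (FLASH), a log2 ratio of -0.72 and -0.82. For Dll4 the log2 ratio was -1.02 and -0.99. Hes1 was at 476, 201 and 310, a log2 ratio of 1.204 and 0.60, and was above 0 in 71.7% of the CONV cells (58.6 to 82.5), 38.7% (31.3 to 46.5) and 52.2% (44.7 to 59.7). Of 4 genes compared, 1 was lower (Dll4; 6.05% of all genes) and 1 higher (Hes1; 6.45%) against CONV AsiDNA, and none passed against FLASH (12.8% in either direction). Of 14 dissociation genes compared in these cells, 8 were at least 2-fold higher in CONV than in CONV AsiDNA and 5 than in FLASH. Their summed levels were 9585, 6802 and 9860, and Fos was at 130 in CONV and listed at 0 in both other libraries. Their part in the aerocyte values was not tested. In vein-like EC Dll1 was lower in CONV, by a log2 ratio of -0.95 and -1.15, and the latter was the only ratio of 5 genes past 2-fold (13.7% of all genes were lower against FLASH, and 21.1% passed in either direction against CONV AsiDNA). The vein-like cells with mt-Co1 above 0 were 0% in CONV against 35.5% (CONV AsiDNA) and 61.8% (FLASH), the dissociation genes summed to 21654, 17375 and 20346, and their part in the Dll1 value was not tested. In artery-like EC none of 7 genes passed in either comparison of CONV, beside 18.3% and 18.6% of all genes. There Dll4 was lower in CONV AsiDNA than in FLASH, by a log2 ratio of -1.09 (6.29% of all genes were lower), and mt-Co1 was above 0 in 9.09% and 51.7% of their cells.

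Over all EC-like cells, 375 in CONV against 455 (CONV AsiDNA) and 483 (FLASH), the ratios of Notch1 (-0.55 and -0.54) and Dll1 were smaller. Notch1 was at 314, 464 and 459, Dll1 at 68.4, 157 and 171 and Hes1 at 522, 307 and 278. In CONV, 11 lymphatic-like cells held 120 of the 717 Hes1 counts. Of 7 genes compared, 1 was at least 2-fold lower in CONV (Dll1), with a log2 ratio of -1.10 against CONV AsiDNA (3.36% of all genes lower) and -1.21 against FLASH (3.39%), and none was higher (3.87% and 4.21%). In the same EC-like cells 12 and 9 of 19 dissociation genes were at least 2-fold higher in CONV and none was lower, and their summed levels were 21654, 10168 and 14143. There mt-Co1 was above 0 in 0.533%, 12.1% and 25.3% of the cells, and the part of these measures in the Dll1 value was not tested. Without the cluster mostly of CONV Dll1 was past 2-fold against neither library (-0.70 and -0.80), and the 1 gene then past it against FLASH was Hes1, which was higher (1.12). None passed between CONV AsiDNA and FLASH, beside 1.25% of all genes. The EC-like cells of CONV held a larger part of general capillary-like cells, 195 of 375, than those of FLASH, 185 of 483, and this mixture is part of each EC-like value.

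Of 52 other Notch pathway genes 43 were compared in EC-like cells, and 1 was at least 2-fold higher in CONV against each of the other libraries and none was lower, beside the 3.87% and 4.21% higher and 3.36% and 3.39% lower of all genes. Their median log2 ratio was 0.04 and -0.05, beside -0.04 and -0.02 for all genes. The gene that was higher was Dtx3, of the Deltex family that acts on receptor turnover, at 40.7 in CONV against 10.4 (CONV AsiDNA) and 11.1 (FLASH). The ligand Jag2 was at 190, 149 and 146, and Rbpj, the DNA-binding partner of the cut receptor, was at 64.0, 50.4 and 47.1. Lfng and Mfng, which add sugars that tune the receptor's response to ligands, were at 48.7, 75.8 and 77.0 and at 102, 134 and 141. Hey2, a relative of Hey1, was near 0, at 5.82, 4.63 and 5.54. Nrarp, a target that feeds back on the receptor, was at 57.5, 123 and 109 in EC-like cells and at 51.1, 151 and 134 in general capillary-like cells. In the latter its log2 ratio was -1.40 and -1.23, and Dtx3, at 52.6, 19.5 and 18.2, was higher. Of the 38 genes of the list compared there, 1 was higher and 1 lower against CONV AsiDNA, and 1 higher and 2 lower against FLASH, beside the shares of all genes given above for these cells (4.83% and 4.85%, 6.12% and 5.38%).

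Fibroblast-like cells, 66 in CONV against 120 (CONV AsiDNA) and 171 (FLASH), had enough counts to compare 4 of the 10 genes, Notch1, Notch2, Hes1 and Heyl. Hes1, the value that entered the choice of the genes, was at 6.83 in CONV against 136 (CONV AsiDNA) and 154 (FLASH), a log2 ratio of -3.12 and -3.29. It was above 0 in 2 of 66 cells (3.03%; 0.369 to 10.5), 29 of 120 (24.2%; 16.8 to 32.8) and 43 of 171 (25.1%; 18.8 to 32.3). CONV AsiDNA and FLASH differed by a log2 ratio of -0.17, and their intervals overlapped. In alveolar fibroblast-like cells Hes1 was above 0 in 5.13% of 39 cells, 31.4% of 70 and 27.8% of 133, and in adventitial fibroblast-like cells in none of 20, 16.7% of 36 and 18.2% of 33. Thinned to 1000 adjusted counts per cell, it was above 0 in no CONV cell, 10.0% and 9.94%.

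The other target in these cells, Heyl, was not lower in CONV, at 88.8 in CONV against 68.9 (CONV AsiDNA) and 78.5 (FLASH), a log2 ratio of 0.32 and 0.16. The receptor Notch2 was at 47.8, 31.5 and 49.9, and Notch1 at 17.1, 37.4 and 32.8. Dll4 and Notch4 were listed at 0 in all fibroblast-like cells, and Dll1 in those of CONV AsiDNA and FLASH. Hes1 was past 2-fold in CONV against each of the other libraries by the choice of the genes, and nothing is read from that call. Of the 3 other genes compared none was at least 2-fold lower, where 5.14% of all 7555 genes were in both comparisons, and none was higher (5.1% and 6.63%). Between CONV AsiDNA and FLASH none of the 4 passed (5.25% in either direction). Among 33 of the 52 other pathway genes compared, 2 were higher and 2 lower against CONV AsiDNA, and 3 higher and 1 lower against FLASH. Rbpj was at 58.0, 110 and 87.0, Hey2 at 3.41, 1.97 and 5.71, and Jag2, Nrarp, Lfng and Mfng were listed at 0. Beside these values, the summed level of the 19 dissociation genes was 16261 in CONV against 23881 (CONV AsiDNA) and 26219 (FLASH), with a median log2 ratio of -0.55 and -0.67. The level of Fos was 2571, 4270 and 4655, that of Jun 2929, 4285 and 4653, that of Egr1 1413, 1941 and 2100 and that of Atf3 468, 622 and 541. Cells with mt-Co1 above 0 were 0% in CONV against 38.3% (CONV AsiDNA) and 67.3% (FLASH), and the part of these measures in the Hes1 value was not tested.

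SMC-like cells, 51, 67 and 54, had the highest levels of Notch3 and Heyl among the groups compared. Heyl was at 252 in CONV against 119 (CONV AsiDNA) and 116 (FLASH), a log2 ratio of 1.02 and 1.05. It was above 0 in 64.7%, 26.9% and 37.0% of the cells. Hes1 was at 24.7, 116 and 46.6, a log2 ratio of -1.86 and -0.71, and rested on 2, 12 and 8 cells. Of 3 genes compared, 1 was higher (Heyl; 7.18% of all genes) and 1 lower (Hes1; 5.69%) against CONV AsiDNA, and 1 was higher (Heyl; 9.88%) against FLASH. Hes1 was also higher in CONV AsiDNA than in FLASH, by a log2 ratio of 1.15 (5.27% of all genes were higher). The dissociation genes summed to 13024, 17389 and 20549, and mt-Co1 was above 0 in 0%, 52.2% and 79.6% of the cells. Their part in the SMC values was not tested.

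**Figure D4:**
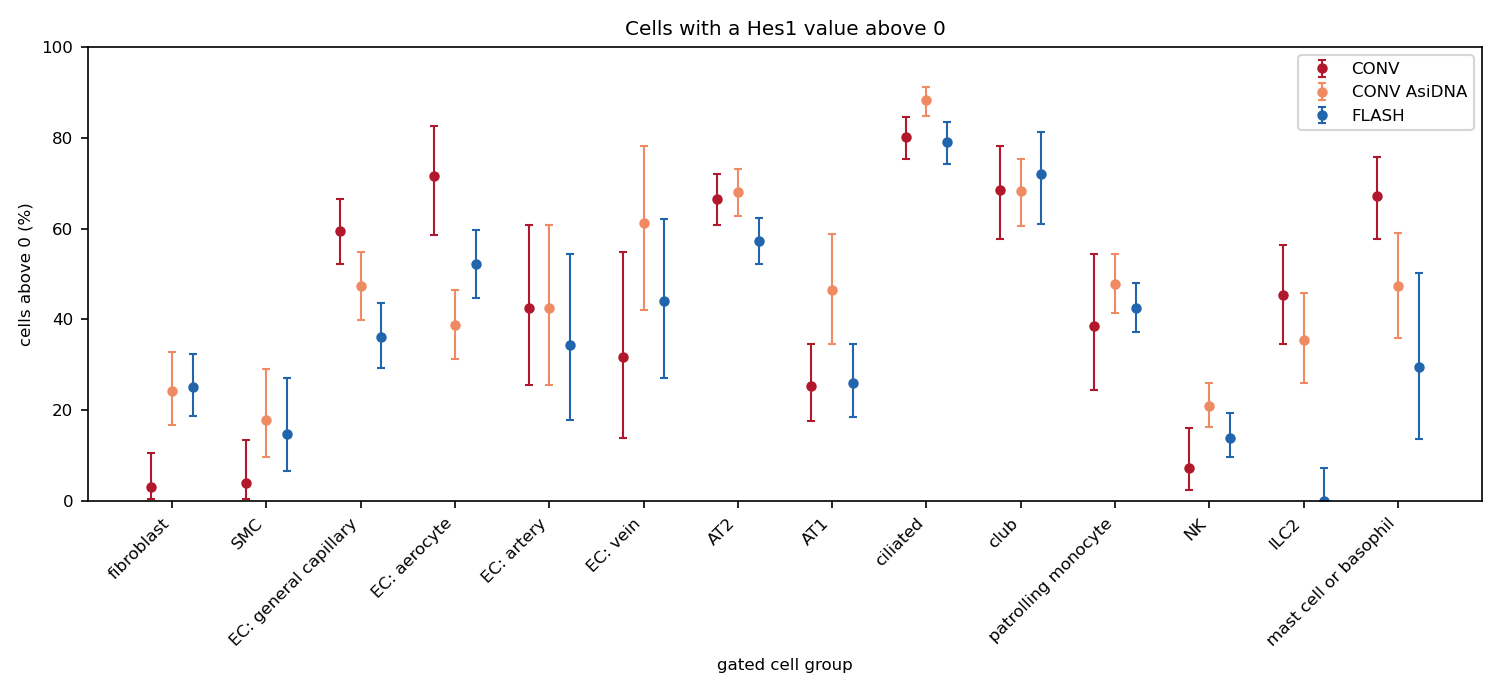
Share of cells with a Hes1 value above 0 in 14 groups and 3 libraries, with exact 95% intervals over cells. CONV lies below the others in fibroblasts (3.03% against 24.2% and 25.1%) and above FLASH in general capillary cells and above CONV AsiDNA in aerocytes. The CONV interval overlaps that of CONV AsiDNA in the former and that of FLASH in the latter, and all 3 overlap in club cells and patrolling monocytes.

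In epithelium Hes1 was highest in ciliated-like cells, at 931 in CONV against 1095 (CONV AsiDNA) and 1287 (FLASH), where 80.3%, 88.4% and 79.1% of the cells were above 0. Club-like cells, at 805, 869 and 790, AT2-like cells, at 386, 464 and 337, and AT1-like cells, at 351, 364 and 209, lay below in every library. No epithelial group differed 2-fold in Hes1. Ciliated-like cells were also the main source of Jag1, at 190, 167 and 177, and held 56.1%, 44.3% and 48.0% of its counts. Outside the endothelium Hey1 was highest in ciliated-like cells, at 40.4, 45.5 and 39.0. In AT2-like cells Jag1 was lower in CONV, at 13.5 against 44.7 and 32.7, a log2 ratio of -1.22 and -0.86 (2.17% of all genes were 2-fold lower against CONV AsiDNA), and was above 0 in 5.17%, 18.2% and 13.4% of the cells. The dissociation genes summed to 17212, 12539 and 11876 there, and 17 and 19 of 19 had a log2 ratio above 0 for CONV. The level of mt-Co1 was 3789, 8495 and 12542, and the part of these measures in the Jag1 value was not tested.

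AM-like cells also had less Jag1, and less Notch1, in CONV. Jag1 was at 4.16 in CONV against 26.2 (CONV AsiDNA) and 24.9 (FLASH), and Notch1 at 24.01, 71.9 and 58.6. The log2 ratios were -1.35 and -1.30 for Jag1 and -1.27 and -1.01 for Notch1, so that 2 of 3 genes compared were lower against each of the other libraries, beside 2.98% and 3.4% of all genes. The AM-like cells lay in different clusters. In CONV 873 of 1027 were in a cluster led by Spp1, Chil3 and Lpl, and in CONV AsiDNA and FLASH 484 of 667 and 374 of 481 were in a cluster led by Cidec, Krt79 and Cpne5. Their dissociation genes summed to 5066, 6675 and 5458, and mt-Co1 was above 0 in 86.5%, 32.1% and 96.3% of the cells. Within the Spp1 cluster Jag1 was above 0 in 1.72% of the CONV cells (0.965 to 2.82), 2.48% of the CONV AsiDNA cells (0.681 to 6.24) and 6.74% of the FLASH cells (2.51 to 14.1). Within the Cidec cluster it was above 0 in 1.64% (0.0415 to 8.80), 15.1% (12.01 to 18.6) and 11.8% (8.68 to 15.5). For Notch1 these shares were 11.8%, 21.7% and 16.9% in the Spp1 cluster and 19.7%, 33.9% and 28.1% in the Cidec cluster, and CONV was lowest in each. For both genes the CONV intervals overlapped those of FLASH in either cluster. They also overlapped those of CONV AsiDNA for Jag1 in the Spp1 cluster and for Notch1 in the Cidec cluster.

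Other immune cells differed in single genes. In mast cell or basophil-like cells Notch1 was at 8.55 in CONV against 90.4 (CONV AsiDNA) and 136 (FLASH), and was above 0 in 2.65%, 25.6% and 29.6% of 113, 78 and 27 cells. The log2 ratio was -2.44 and -2.98 (11.7% and 14.0% of all genes were 2-fold lower). Their Hes1 was at 1180, 662 and 1091. It was above 0 in 67.3% (57.8 to 75.8), 47.4% (36.0 to 59.1) and 29.6% (13.8 to 50.2) of the cells. The FLASH level rested on 8 cells with 96 adjusted counts, and the highest value of a cell was 44. The dissociation genes of the mast cell or basophil-like cells summed to 116685, 62610 and 55309. There mt-Co1 was above 0 in 0.885%, 0% and 48.1% of the cells, and of 1967 genes above 0 in at least 25% of the cells in any library 210 were listed at 0 in another. The part of these measures in the Notch1 and Hes1 values was not tested. In NK-like cells Notch1 was listed at 0 in CONV and above 0 in 36 of 283 CONV AsiDNA (12.7%) and 38 of 215 FLASH cells (17.7%), and Hes1 was at 80.7, 183 and 189, a log2 ratio of -1.09 and -1.13 (14.6% and 15.3% of all genes were 2-fold lower). This Hes1 value rested on 5, 59 and 30 cells. The dissociation genes summed to 8562, 10548 and 9793 in the NK-like cells, and Fos and Jun were listed at 0 in those of CONV. There mt-Co1 was above 0 in 0%, 0% and 8.37%. Among 1699 genes above 0 in at least 25% of the NK-like cells in any library, 10 were listed at 0 in another. The part of these measures in the Notch1, Notch2 and Hes1 values of NK-like cells was not tested. Innate lymphoid-like cells of group 2 held Hes1 at 1238 in CONV and 372 in CONV AsiDNA, and it was listed at 0 in all 48 such cells of FLASH. The log2 ratio against CONV AsiDNA was 1.71 (3.96% of all genes were 2-fold higher). The dissociation genes summed to 17532, 11830 and 9943 in these cells, Jun was at 765, 615 and 0, and mt-Co1 was above 0 in 16.3%, 1.04% and 66.7%. Their part in the Hes1 value was not tested. Of 1849 genes above 0 in at least 25% of those cells in any library, 15, Hes1 included, were listed at 0 in another. Patrolling monocyte-like cells held Hes1 at 376, 396 and 401, within 2-fold of each other. Their Jag1 was at 26.4, 13.4 and 7.05, a log2 ratio of 1.09 against FLASH (6.37% of all genes were 2-fold higher), and rested on 4, 10 and 7 cells, and mt-Co1 was above 0 in 20.5%, 0.424% and 5.80% of the cells. In T-like cells Jag1 was at 0.443, 11.2 and 0.487, from 2, 30 and 2 cells, and mt-Co1 was above 0 in 19.1%, 6.81% and 72.8%. In IM-like (interstitial macrophage) cells Jag1 was at 17.5, 20.9 and 4.57, from 31, 26 and 5 cells, and mt-Co1 was above 0 in 10.5%, 0% and 46.5%. The part of mt-Co1 in these Jag1 values was not tested. Both groups enter the pair counts below.

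Over the 24 groups that do not overlap, 76 pairs of a gene and a group could be compared. CONV was at least 2-fold lower than CONV AsiDNA in 15 and higher in 4, beside 6.54% and 4.43% of all gene and group pairs. Against FLASH it was lower in 11 and higher in 4 (6.48% and 6.21%). These counts include Hes1 in both fibroblast-like subgroups, which the choice of the genes used. Without it 74 pairs remain, with 13 lower against CONV AsiDNA and 9 against FLASH. CONV AsiDNA was higher than FLASH in 5 and lower in 1 (3.62% and 1.98%). The 5 include Hes1 in mesothelial-like and in innate lymphoid-like cells, which was listed at 0 in all FLASH cells of these groups. These pairs reached the minimum sum through other libraries, so low expression in FLASH is not read from them. In 9 pairs CONV was lower than both other libraries, beside 4.04% of all pairs. These were Dll1 and Dll4 in general capillary-like cells, Notch1 in AM-like, NK-like and mast cell or basophil-like cells, Jag1 in AM-like cells, Hes1 in NK-like cells and Hes1 in both fibroblast-like subgroups, or 7 without the last, and Dll4 leaves them under the other scaling. The minimum sum is over the libraries together, so a pair could enter through libraries other than CONV alone. Among the 9 pairs that was so for Notch1 in NK-like cells and Hes1 in adventitial fibroblast-like cells, both listed at 0 in CONV. It was also so for Hes1 in mesothelial-like cells, listed at 0 in CONV, a pair counted as lower against CONV AsiDNA only. These zeros also enter the counts above, and low expression is not read from them. In 2 pairs CONV was higher than both (2.36% of all pairs), Heyl in SMC-like cells and Hes1 in innate lymphoid-like cells. In the latter cells of FLASH, Hes1 was listed at 0, as was Jun, so that call against FLASH is not read as low expression. Comparisons of CONV with the others share the CONV library, so the comparisons are not independent.

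The genes with the pattern most like each member were sought among 14046 genes that are neither markers nor members, by Pearson's r of log2 level plus 10 over 24 groups with the libraries weighted equally, as a description. Notch4 was nearest to Adcy4 (r = 0.986) and Ccm2l (0.981), Dll1 to Grrp1 (0.987) and Fam181b (0.978), and Notch1 to Arap3 (0.914) and Upp1 (0.868). Notch3 was nearest to Kcnk3 (0.980) and Aoc3 (0.969), and Heyl to Pi15 (0.997) and Dact3 (0.990). Dll4 was nearest to 5033406O09Rik (0.929) and Gm14207 (0.925), and the latter overlaps Dll4 on the opposite strand, so reads of the pair may be hard to tell apart where counting ignores strand. Jag1 was nearest to Osbpl10 (0.863) and Itgb4 (0.862), Hey1 to Sema3g (0.888) and Sdcbp2 (0.875), and Notch2 to Serp1 (0.869) and Gm2a (0.801). For Hes1, whose r values were the lowest of the 10, the nearest were Trpm4 (0.717) and Mrpl53 (0.711). In GENCODE M21 (GRCm38), Dll1 lies at chr17:15367354-15376872 (minus strand), Dll4 at chr2:119325784-119335962 (plus) and Hes1 at chr16:30064384-30067796 (plus). Jag1, Hes1, Hey1 and Heyl overlap no other annotated gene, whereas each of the other 6 overlaps at least 1.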

How the data were processed

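Per the labels, lung suspensions were run on the 10x Genomics 3′ v3.1 system, and the submitters' processing notes name Cell Ranger 6.0.0 and the build mm10. The authors deposited 1 table per library, in which each entry is a natural log, ln(1 + n), of a whole number n. The sources used here do not say how n was adjusted. Totals per cell are narrow (1432 to 8462), and the values are not raw counts, so no count model was used. Each value was converted back (within 1e-06 of a whole number). Another 4 tables, with 12 columns that match no sample, were not used.

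Cells with at least 200 genes above 0 and at most 20% mitochondrial share were kept. A cell took the class with the highest share of its gate markers above 0 (at least 3, and 2 for a subclass), and a tie left it unnamed. No doublet caller was run, and 114 cells passed gates of more than 1 lineage. Clusters came from Leiden at resolution 1 on 2000 variable genes, without the 10 genes. Called means at least 2-fold on level plus 10, over all genes with a sum of at least 20 in the group. The computation of the ratio was tried on simulated counts drawn without spread between cells or mice. It therefore does not measure the accuracy of the ratios in these adjusted values.

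Genes named are the 10 members, other pathway genes past 2-fold in CONV against both other libraries in fibroblast-like or in EC-like cells, Rbpj, Jag2, Hey2, Nrarp, Lfng and Mfng at any value, Fos, Jun, Egr1 and Atf3 of the dissociation list, and the 2 genes most like each member. One item that this rule takes in is not reported here. The genes mt-Co1, Tek, Ptprb and Hilpda were named after their values were seen. The members, lists, markers and alternatives were chosen with earlier results of these data known. Python 3.11.15, numpy 2.4.6, pandas 2.3.3, scipy 1.17.1, scanpy 1.11.5, igraph 0.11.9 and matplotlib 3.10.9 were used.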

Additional observations from a re-analysis of the deposited data

Results flagged for a closer look

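Hes1 and Jag1 moved at least 2-fold in opposite directions in different cell groups of the same pair of libraries, and none of these differences was tested. Against CONV AsiDNA, Hes1 was lower in CONV in fibroblast-like cells (log2 ratio -3.12, the value that entered the choice of the genes), SMC-like cells (-1.86) and NK-like cells (-1.09). It was listed at 0 in mesothelial-like cells of CONV against a level of 175 in CONV AsiDNA, and was higher in aerocyte-like EC (1.204) and in innate lymphoid-like cells of group 2 (1.71). Against FLASH, Hes1 was lower in CONV in fibroblast-like cells (-3.29) and NK-like cells (-1.13) and higher in general capillary-like EC (1.26). Jag1 was lower in CONV than in FLASH in AM-like cells (-1.30) and higher in patrolling monocyte-like cells (1.09), where it was above 0 in 9.09% of 44 CONV cells and 2.03% of 345 FLASH cells.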

How the results depend on the processing

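In addition to thinning, each of 10 alternatives was applied where it could give a value (a minimum sum of 50 left out some genes) to the results in fibroblast-like, EC-like and general capillary-like cells. No ratio changed sign among those at least 2-fold. The log2 ratio of Hes1 in fibroblast-like cells, CONV over FLASH, became -4.31 with 1 added to the level in place of 10. The count of genes past 2-fold in fibroblast-like cells against CONV AsiDNA rose from 1 to 2 with 1 added, since Notch1 (log2 ratio -1.09) then passed. At a 1.5-fold mark it was 2 against each of the other libraries, or 1 without Hes1 (31.2% and 32.9% of all genes passed in either direction). In EC-like cells it was 3 of 7 against each (22.5% and 23.8%), and in general capillary-like cells 5 of 7 against CONV AsiDNA (27.6%), 6 against FLASH (31.0%) and 1 between CONV AsiDNA and FLASH (14.9%). Scaling by the median gene ratio left 1 of 3 against CONV AsiDNA in general capillary-like cells. Leaving out the endothelial cluster mostly of CONV, an alternative chosen after seeing the data, gave 0 in EC-like cells and 1 in general capillary-like cells against CONV AsiDNA, and moved 7 single ratios there beyond the range set by the shares' intervals, which apart from the Hes1 ratio above no other alternative did. Thinning lowered the share of fibroblast-like cells with Hes1 to 0%, 10.0% and 9.94% at 1000 counts per cell and to 0%, 7.5% and 5.85% at 500, in CONV, CONV AsiDNA and FLASH, given as a description of the value that chose the genes. The other 126 settings of these results stayed close to the main value. No paired analysis was possible because each condition has 1 library. The number of cells limits precision, and groups under 20 cells in a library were not compared.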

Other observations

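Lymphatic-like EC, with 11, 19 and 26 cells in CONV, CONV AsiDNA and FLASH, were too few to compare. They held Dll4 at 188, 93.2 and 133, Notch1 at 230, 506 and 338 and Hes1 at 2505, 506 and 426. Hes1 was above 0 in 6 of 11 CONV cells, which together held 120 adjusted counts. Mesothelial-like cells listed Hes1 at 0 in CONV and FLASH, while 27.9% of 43 CONV AsiDNA cells were above 0. In these cells 123 of 3869 genes above 0 in at least 25% of the cells of any library were listed at 0 in another.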
